A study of Mus musculus with 6 samples.

Results

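Collagens, laminins and integrins were examined in mouse neuro2a (N2a) neuroblastoma cells in which 2 subunits of the transcription factor NF-Y were knocked down. The members were all mouse genes whose symbols begin with Col and a digit, with Lama, Lamb or Lamc and a digit, or with Itga or Itgb and a digit or letter, without the integrin-binding proteins. The rule gave 83 genes, namely 44 collagens, 11 laminins and 28 integrins. Total RNA of 3 control samples, transfected with the empty vector, and of 3 knockdown samples, transfected with vectors that express artificial microRNAs against NF-YA and NF-YC, was hybridised to 1-colour Agilent mouse arrays, 1 array per sample. All 6 samples came from the same cell line, and the cells of both groups had been transfected. Transfection usually leaves some cells without the vector, and each array reads the whole culture, so that fewer cells expressing a gene and less of its RNA per cell cannot be told apart. The labels did not say whether the samples were separate cultures, and the p-values measure only the spread between these samples, which may be technical.

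Collagens are secreted proteins that wind into triple helices. Fibrillar collagens build tensile fibres, collagen IV forms the network of basement membranes, and FACIT collagens decorate the surface of fibres. Laminins are cross-shaped heterotrimers of an alpha, a beta and a gamma chain that assemble into the other network of the basement membrane. Integrins are the cell's receptors for these proteins, each a heterodimer of an alpha and a beta subunit that links the matrix to the actin cytoskeleton. Neuroblastoma cells derive from the sympathetic branch of the neural crest and grow neurites on laminin. NF-Y is a heterotrimer that binds the CCAAT box of promoters, and the mouse Col1a2 promoter was one of the first on which it was studied, under the name CBF.

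The promoter windows are shown because a CCAAT box is the sequence that NF-Y binds. Of the 83 genes, 60 had promoter windows in the RefSeq table, 66 windows in all. The motif CCAAT, searched on both strands (so also as ATTGG), lay within the 250 bases before the annotated start in 18 of the 66 member windows (27.3%), against 11120 of 32851 windows of all genes (33.8%). Over the members whose signal could be tested, 11 of 44 windows held it (25%). The windows below are 5′ to 3′ on the strand of the gene, with the motif in capitals, and end at the base before the start (RefSeq, GRCm38.p6). They are those of Col16a1 (chr4:130047590-130047839, plus strand) and Col1a2 (chr6:4505368-4505617, plus strand), which hold a CCAAT, and of Itgb7 (chr15:102231936-102232185, minus strand), which holds none.
Col16a1: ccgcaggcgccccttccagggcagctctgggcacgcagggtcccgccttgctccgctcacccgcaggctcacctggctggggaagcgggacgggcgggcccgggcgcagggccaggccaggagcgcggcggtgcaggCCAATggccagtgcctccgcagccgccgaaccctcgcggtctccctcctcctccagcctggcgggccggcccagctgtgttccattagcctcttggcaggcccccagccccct
Col1a2: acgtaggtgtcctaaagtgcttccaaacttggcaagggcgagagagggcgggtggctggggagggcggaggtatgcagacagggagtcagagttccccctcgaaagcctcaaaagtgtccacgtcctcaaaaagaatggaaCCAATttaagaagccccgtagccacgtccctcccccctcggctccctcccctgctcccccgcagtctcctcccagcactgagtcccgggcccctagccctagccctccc
Itgb7: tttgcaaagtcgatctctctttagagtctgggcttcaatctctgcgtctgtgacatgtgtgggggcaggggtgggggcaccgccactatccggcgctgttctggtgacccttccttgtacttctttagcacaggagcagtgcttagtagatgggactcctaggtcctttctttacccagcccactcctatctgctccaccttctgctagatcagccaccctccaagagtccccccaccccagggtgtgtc
The motif began 113 bases before the start in Col16a1 and 109 bases before it in Col1a2. Col1a1 is named only, without a window. A match describes the letters of the window and says nothing of binding in these cells, and the absence of a match says only that these letters are not in it.

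Signal was given as the log2 of the background-subtracted intensity minus the 75th percentile of the same array, so that 0 is the level of that percentile. Each gene was read from its brightest probe, and the levels of members and list genes were compared only between arrays, never between probes. For cell type markers alone, signals were summed over probes and the share of 1 gene in the sum was given. A probe was counted as detected where the scanner software had marked it as well above background. The 75th percentile lay between 718 and 754 intensity units, and 61.9 to 66.2% of probes were well above background on each array. The knockdown itself was seen in the arrays, where Nfyc was lower by -1.81 ± 0.0450 (log2, SE) and Nfya by -0.76 ± 0.0546 (limma adjusted p = 0.000323 and 0.00128, 3 arrays against 3).

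N2a cells gave signal for most of the matrix and receptor genes. Of the 83 genes, 79 had a matched probe, and 51 of these were well above background on all 6 arrays, 6 on some arrays and 22 on none. Col6a3, Col12a1, Itga10 and Itgae had no matched probe and were not analysed here. Of the 79, 57 passed the filter on dim probes and were tested, and 22 were below it. In 2 of the 57 the filter was passed through 1 group only.

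**Figure D1:**
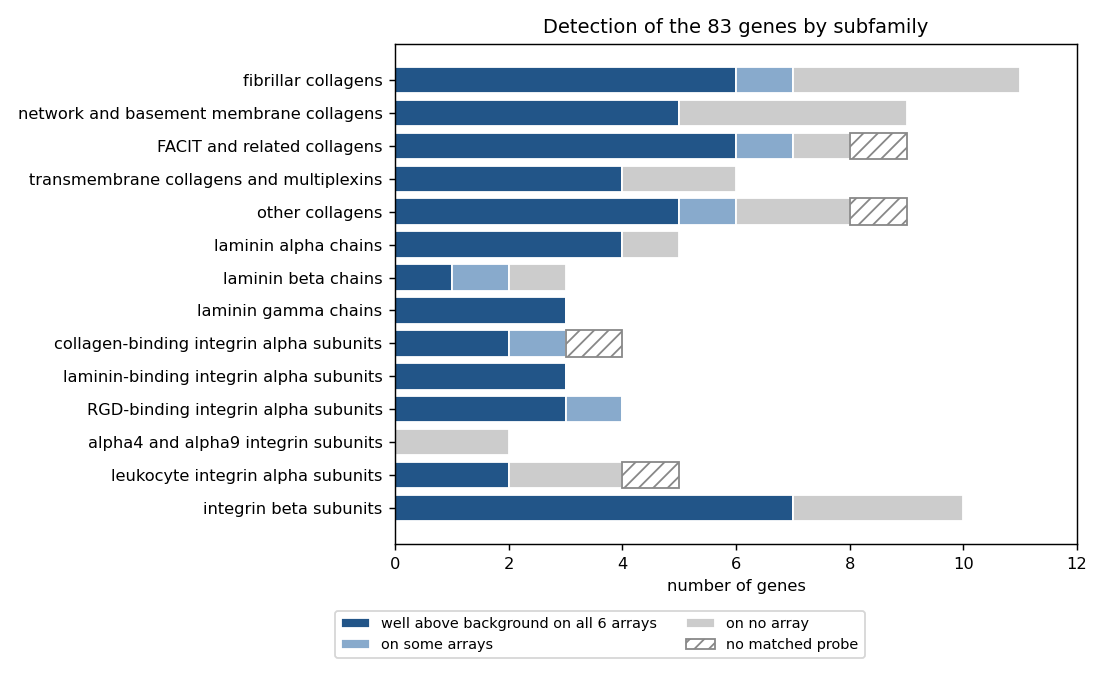
Detection of the 83 genes, as the number of genes per subfamily that were well above background on all 6 arrays, on some, or on none, or that had no matched probe (hatched). All 3 laminin gamma chains and all 3 laminin-binding integrin alpha subunits were detected on every array, and neither alpha4 nor alpha9 integrin on any.

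Detection differed between chains that assemble with each other. Of the laminin alpha chains Lama2, Lama3, Lama4 and Lama5 were well above background on all 6 arrays and Lama1 on none. Of the beta chains only Lamb2 was detected on all 6 arrays, while Lamb1 was not well above background on any and Lamb3 was so on 1 knockdown array. All 3 gamma chains were detected throughout. Among the collagen IV chains, Col4a1, Col4a2, Col4a4 and Col4a6 were detected on all 6 arrays, and the probes of Col4a3 and Col4a5 on none. Among integrin beta subunits, Itgb6 and Itgb8, the partners of Itgav in epithelia and glia, were detected on no array, and neither was Itgb2l. A probe not well above background sets an upper bound on the signal and does not show that the gene is silent.

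Across the tested genes the knockdown changed few members in either direction. A gene was called changed at a limma adjusted p below 0.05 (Benjamini-Hochberg over all 42126 probes tested) with a fold change above 1.5. Of the 57 tested members, 2 were called lower, Col16a1 and Col1a1, and 3 higher, Itgb7, Itga8 and Col24a1. The 2 lower members compare with 5% of all 16490 genes tested that were called lower, and the 3 higher members with 3.91% called higher. Calls in either direction came to 8.77% of the tested members and 8.9% of all genes tested, so that the share among the members lay near the background. The median change over the tested members was 0.024 and that over all genes tested 0.0053, on the log2 scale.

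Without the fold minimum, 9 members were lower and 8 higher at adjusted p below 0.05 (29.8% of the 57, against 31.5% of all genes tested). In all 17 the control and knockdown arrays did not overlap. Over all tested members the groups were apart in 29 of 57 (50.9%), against 54.7% of all genes tested. The 95% interval of the change lay wholly within 1.5-fold in either direction for 30 of the 57 (52.6%), against 65.1% of all genes tested. For the other 27 members these 6 arrays left room for a 1.5-fold change or showed one.

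**Figure D2:**
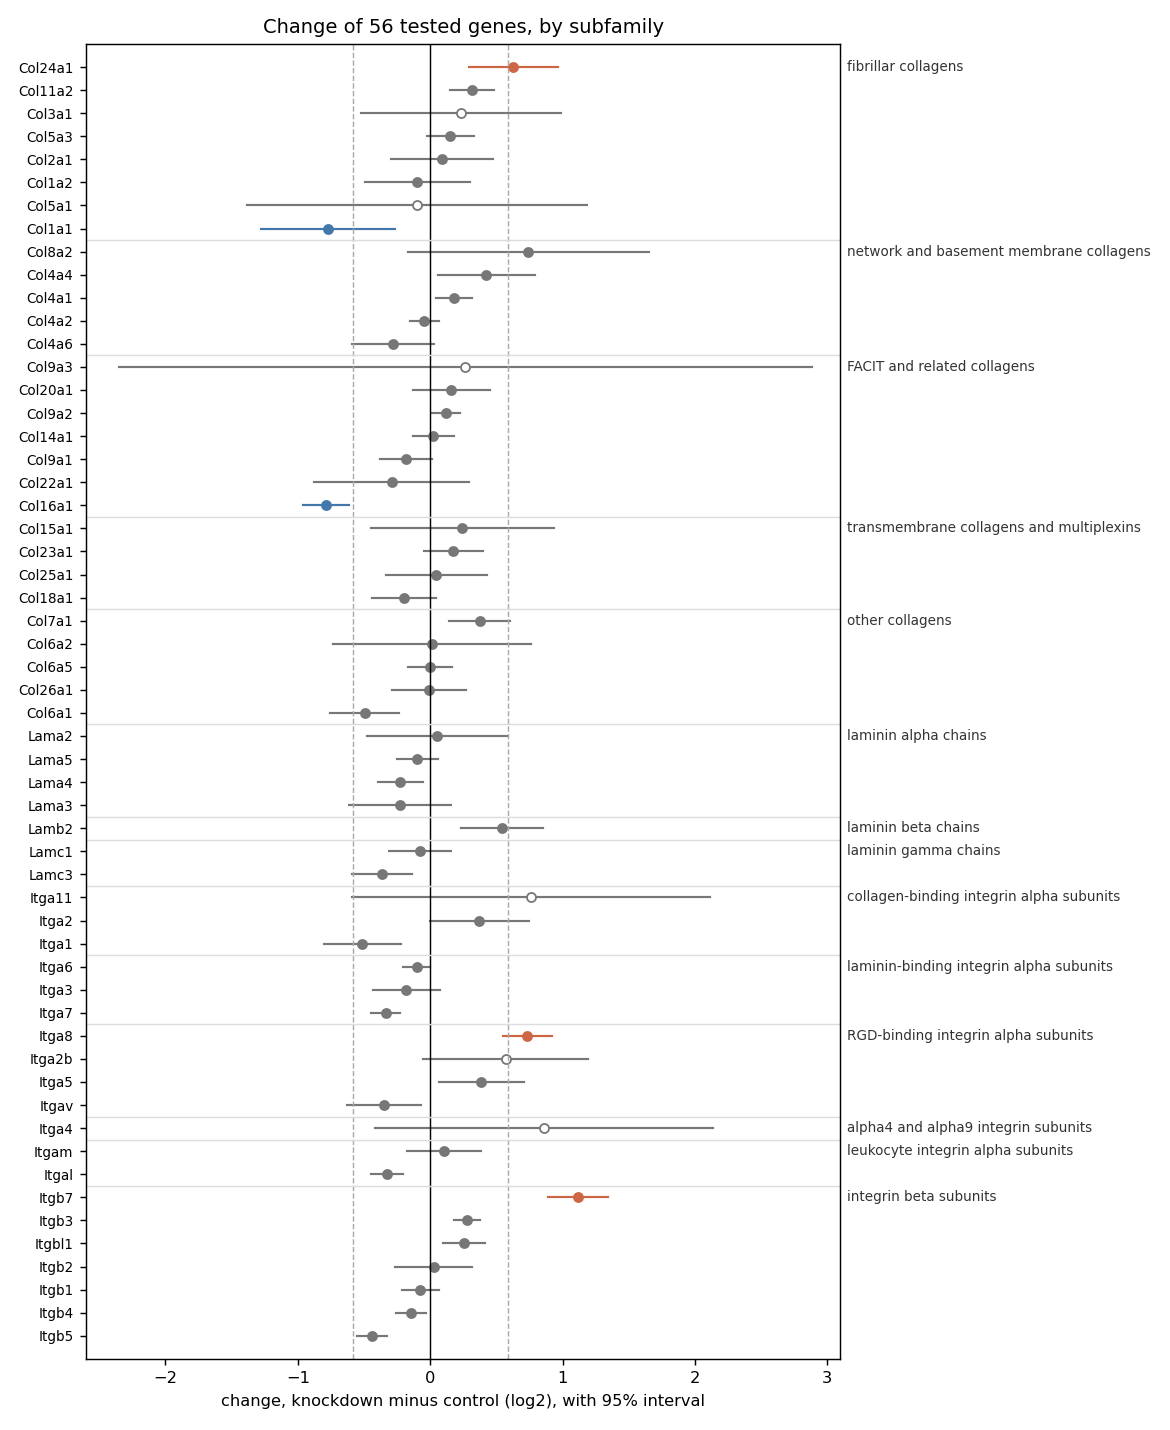
Change of 56 of the 57 tested genes (knockdown minus control, log2, x axis) with its 95% interval, grouped by subfamily. Blue points are called lower, red points higher, grey points neither, open points were not well above background on all 6 arrays, and dashed lines mark 1.5-fold. Intervals of the open points are wide, and Itgb7 lies farthest from 0 among the called genes.

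Among the fibrillar collagens, of which 8 of 11 were tested, 1 was called lower and 1 higher (5% and 3.91% of all genes tested). Col1a1 encodes the alpha 1 chain of type I collagen, the main fibre protein of bone, skin and tendon. Its signal was -4.36, -4.40 and -4.83 on the 3 control arrays and -5.36, -5.56 and -4.98 on the 3 knockdown arrays. The groups did not overlap, but control 3 and knockdown 3 stood close to each other. Col1a1 fell from -4.53 ± 0.258 to -5.30 ± 0.293 (SD, n = 3), a change of -0.77 ± 0.201 (log2, SE; 95% interval -1.28 to -0.26; limma adjusted p = 0.0491). These are dim spots, of 26.5 to 36.7 intensity units in the controls and 15.3 to 23.1 in the knockdown, and with another background correction (normexp) the change was -0.19. The call was also lost when control 1, control 2, knockdown 1 or knockdown 2 was left out, with changes of -0.64 to -0.74.

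Col1a2 encodes the alpha 2 chain that joins 2 alpha 1 chains in the type I collagen helix. It gave -3.04, -3.18 and -3.51 in the controls and -3.53, -3.30 and -3.18 in the knockdown, and the groups overlapped. Its change was -0.098 (95% interval -0.50 to 0.30, limma adjusted p = 0.700), so the gene with the CCAAT motif 109 bases before its start did not pass the test. Whether Col1a1 and Col1a2 changed differently was not tested.

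Col24a1, a minor fibrillar collagen of developing bone, moved the other way. The control arrays gave -4.79, -4.69 and -5.00 and the knockdown arrays -4.003, -4.39 and -4.20. All 3 knockdown arrays were above all controls. It rose from -4.82 ± 0.159 to -4.20 ± 0.194 (SD, n = 3), by 0.63 ± 0.132 (log2, SE; 95% interval 0.29 to 0.96; limma adjusted p = 0.0269), or 1.54-fold. Normexp gave 0.25 and quantile normalisation 0.51, and the call was lost under both. It was also lost without control 1, 2 or 3 and without knockdown 1 or 3, at changes of 0.53 to 0.70. Col11a2, a chain of the cartilage collagen XI, was higher by 0.32 ± 0.0656 (limma adjusted p = 0.0257), under the fold minimum. The other fibrillar collagens tested, Col2a1, Col3a1, Col5a1 and Col5a3, did not pass the test, and of these Col3a1 was detected on no array and Col5a1 on 1.

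Among the FACIT and related collagens, with 7 of 9 tested, only Col16a1 was called (8.9% of all genes tested were called in either direction). Col16a1 encodes the chain of collagen XVI, which sits at the edge of fibres and near basement membranes and is bound by collagen-binding integrins. Its control arrays gave -0.56, -0.58 and -0.51 and its knockdown arrays -1.39, -1.21 and -1.40. The lowest control was well above the highest knockdown array. Col16a1 fell from -0.55 ± 0.0377 to -1.34 ± 0.106 (SD, n = 3), a change of -0.79 ± 0.0677 (log2, SE; 95% interval -0.96 to -0.61; limma adjusted p = 0.00194), or 1.72-fold. In intensity units the spots read 493 to 530 in the controls and 277 to 310 in the knockdown. A second probe gave -1.001 (limma adjusted p = 0.000734), and another gave -0.86 (limma adjusted p = 0.123). Col16a1 was called under all 16 alternative settings, with changes from -0.88 to -0.67, and was the only called member that was called in every one. Of the 4 called members with a promoter window, only Col16a1 had a CCAAT motif in it, and 33.8% of the windows of all genes held the motif. Whether the motif has a part in the change was not tested. Col22a1, a collagen of tissue junctions, gave -0.29 (95% interval -0.88 to 0.30, limma adjusted p = 0.427).

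The basement membrane collagens did not pass the test. Col4a1 and Col4a2 are transcribed head to head from a shared promoter region and form the common collagen IV trimer. Col4a1 gave 3.91, 3.96 and 3.96 in the controls and 4.20, 4.06 and 4.12 in the knockdown, so that all knockdown arrays were higher. The change of 0.18 ± 0.0536 (95% interval 0.05 to 0.32) had a limma adjusted p of 0.068. Col4a2 changed by -0.044 (95% interval -0.15 to 0.07, limma adjusted p = 0.527). The intervals of both genes exclude a 1.5-fold change in either direction, although both windows held the CCAAT motif. Col4a4, of the collagen IV of the glomerulus, gave 0.42 (95% interval 0.06 to 0.79, limma adjusted p = 0.100), and Col8a2, a short-chain network collagen, gave 0.74 with an interval from -0.17 to 1.65 (limma adjusted p = 0.210).

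The transmembrane collagens and multiplexins showed no call among 4 tested members. The multiplexins Col15a1 and Col18a1, whose cleaved ends include endostatin, gave 0.24 (95% interval -0.45 to 0.93) and -0.20 (95% interval -0.44 to 0.05). A second probe for Col18a1 gave 0.21, of opposite sign. Among the remaining collagens, Col6a1, a chain of the beaded-filament collagen VI, gave -3.10, -3.18 and -3.44 in the controls and -3.74, -3.80 and -3.67 in the knockdown. The groups did not overlap, and the change of -0.50 ± 0.103 (limma adjusted p = 0.0254) stayed under the fold minimum, though it was called without control 3, at -0.60, and under quantile normalisation, at -0.59. Under normexp it gave -0.24. Col7a1, the anchoring fibril collagen beneath epithelia, was higher by 0.37 ± 0.0900 (limma adjusted p = 0.0396), again under it.

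No laminin was called, among 8 tested of 11. Lamc3, a gamma chain found in brain and retina, gave -3.19, -3.28 and -3.31 in the controls and -3.46, -3.72 and -3.71 in the knockdown, without overlap. It was lower at adjusted p below 0.05 but under the fold minimum, with a change of -0.37 ± 0.0903 (limma adjusted p = 0.0428). For Lamc1, the gamma chain of most laminins, the change was -0.075 (95% interval -0.31 to 0.16, limma adjusted p = 0.608).

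Lamb2, the beta chain of synaptic and renal laminins, went in the opposite direction to Lamc3. It gave -4.43, -4.19 and -4.20 in the controls and -3.56, -3.92 and -3.71 in the knockdown. All knockdown arrays were higher, and the change was 0.54 ± 0.121 (95% interval 0.24 to 0.85; limma adjusted p = 0.0319), just short of the fold minimum. It was called when knockdown 2 was left out, with 0.64, and gave 0.28 under normexp. The alpha chains did not pass the test. Lama4, the alpha chain of vessel and nerve basement membranes, gave -0.23 ± 0.0676 with non-overlapping groups (limma adjusted p = 0.0717), and Lama3, an alpha chain of epithelial basement membranes, gave -0.23 (95% interval -0.61 to 0.16, limma adjusted p = 0.349) and 0.028 as the mean of its probes.

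Among the integrins, with 20 of 28 tested, 2 were called higher and none lower (10% in either direction, against 8.9% of all genes tested). At adjusted p below 0.05, without the fold minimum, 4 were lower and 4 higher (40% in either direction, against 31.5% of all genes tested). Itgb7 encodes the beta 7 subunit, which pairs with Itga4 or Itgae and is best known for homing lymphocytes to the gut. It gave -4.20, -4.35 and -4.05 in the controls and -3.11, -3.11 and -3.02 in the knockdown. The knockdown arrays lay close together and far above all controls. Itgb7 rose from -4.20 ± 0.152 to -3.08 ± 0.0516 (SD, n = 3), by 1.12 ± 0.0891 (log2, SE; 95% interval 0.89 to 1.34; limma adjusted p = 0.00162), or 2.17-fold. The spots are dim, with 36.2 to 45.6 intensity units in the controls and 83.3 to 89.9 in the knockdown, and under normexp the change was 0.50 and no longer called. Of its alpha partners, Itga4 was detected on no array and Itgae had no matched probe, so the arrays gave no measured partner for it. Endothelial and blood markers were summed at 17.99 to 21.0 in the controls and 16.1 to 17.9 in the knockdown (linear signal relative to the 75th percentile). Of the 10 with a probe, 6 were detected on all arrays, none was called, and Cdh5 and Lyz2 were detected on none. The endothelial gene Kdr made up 71.5 to 74.8% of this sum. Ptprc gave -0.52 (limma adjusted p = 0.0236), under the fold minimum, and no other tested marker of this list passed. Tek, detected on all 3 knockdown arrays but on no control array, gave 1.43 (limma adjusted p = 0.0990). The part of blood cells in the Itgb7 signal was not tested.

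Itga8 encodes the alpha 8 subunit, which pairs with Itgb1 and binds RGD ligands such as nephronectin. The controls gave -2.88, -2.96 and -2.72 and the knockdown arrays -2.14, -2.12 and -2.09. Again the knockdown arrays lay close together above all controls. Itga8 rose by 0.73 ± 0.0717 (log2, SE; 95% interval 0.55 to 0.92; limma adjusted p = 0.00272), or 1.66-fold, and by 0.50 under normexp, where it was not called. Its partner Itgb1, the most widely shared beta subunit, changed by -0.074 (95% interval -0.21 to 0.06, limma adjusted p = 0.392). The other RGD-binding alpha subunits pointed both ways without passing the test. Itga5, the fibronectin receptor subunit, gave 0.39 (95% interval 0.07 to 0.71, limma adjusted p = 0.0892), and Itgav, the vitronectin receptor subunit, gave -0.35 (95% interval -0.63 to -0.07, limma adjusted p = 0.0818). A second Itgav probe gave -0.070 (limma adjusted p = 0.513), with overlapping groups.

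**Figure D3:**
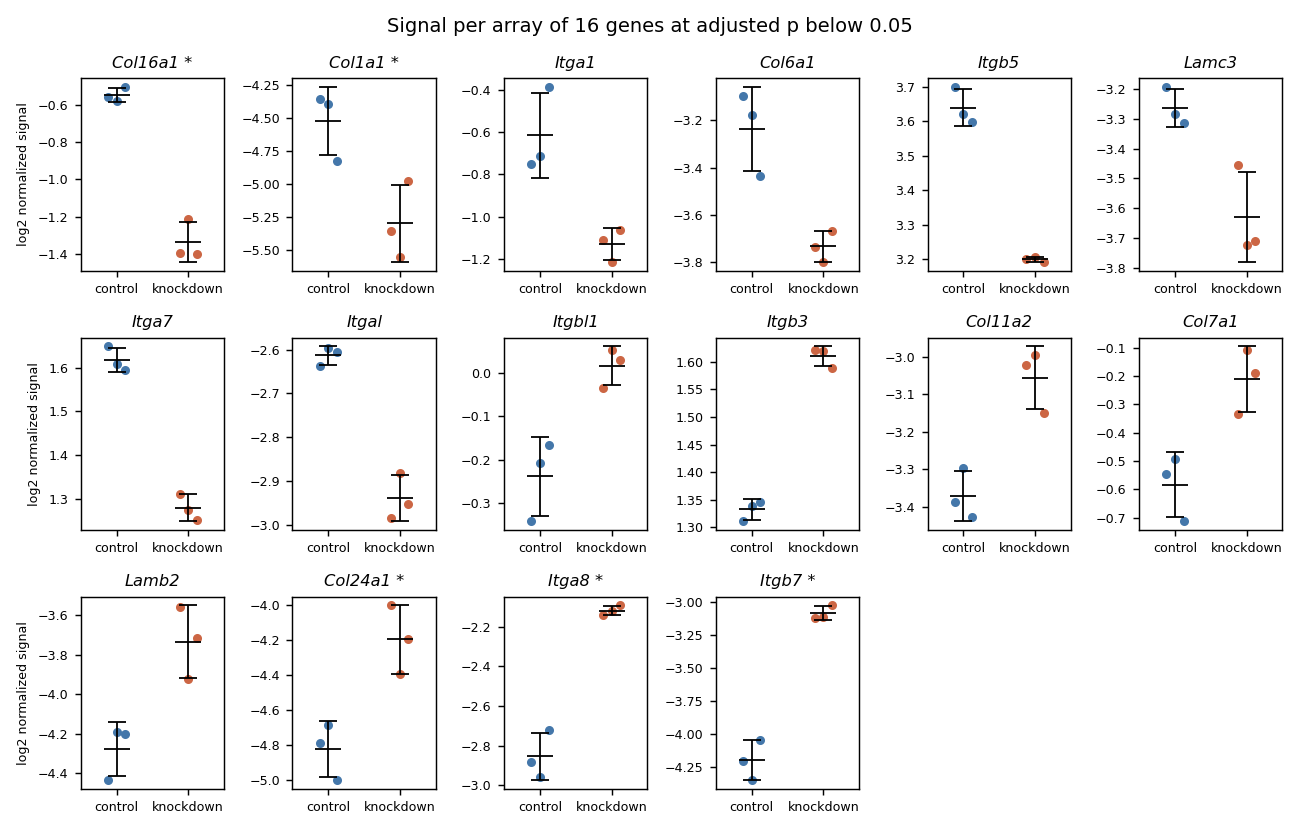
Signal on each array (log2 relative to the array's 75th percentile, y axis, a separate scale per panel) of 16 of the 17 members at limma adjusted p below 0.05, with the mean and SD of 3 arrays per group, ordered from the most negative change to the most positive. Asterisks mark the 5 called members, and in no panel do the groups overlap.

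The beta subunits that pair with Itgav differed in direction. Itgb5 gave 3.70, 3.62 and 3.60 in the controls and 3.20, 3.21 and 3.19 in the knockdown, a change of -0.44 ± 0.0456 (95% interval -0.56 to -0.32; limma adjusted p = 0.00325). Itgb3 gave 1.31, 1.34 and 1.35 against 1.62, 1.62 and 1.59, a change of 0.28 ± 0.0390 (limma adjusted p = 0.00786), and its second probe gave 0.39 (limma adjusted p = 0.0159). Both shifts were well outside the spread between arrays and both intervals lay within 1.5-fold. Itgbl1, a secreted protein with integrin-beta-like repeats and no receptor subunit, was higher by 0.25 ± 0.0633 (limma adjusted p = 0.0436).

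No alpha subunit of the receptors for collagen and laminin was called. Itga1, a collagen receptor subunit that prefers collagen IV, gave -0.75, -0.71 and -0.39 in the controls and -1.11, -1.21 and -1.06 in the knockdown, and control 3 stood above the other controls. Its change of -0.51 ± 0.114 (limma adjusted p = 0.0315) was under the fold minimum, and a second probe gave -0.28 (limma adjusted p = 0.0976). Itga2, the other collagen receptor subunit detected on all arrays, gave 0.37 (limma adjusted p = 0.141), and Itga11, detected on 5 of 6 arrays, gave 0.76 with an interval from -0.59 to 2.11. None of these 3 collagen-binding subunits had an interval within 1.5-fold. Of the laminin receptor subunits, Itga7, of muscle and nerve, gave 1.65, 1.61 and 1.60 against 1.31, 1.28 and 1.25, a change of -0.34 ± 0.0422 (limma adjusted p = 0.00573). Itga6 and Itga3 gave -0.10 ± 0.0400 and -0.18 (limma adjusted p = 0.135 and 0.266). The intervals of all 3 laminin-binding subunits lay within 1.5-fold. Of the leukocyte subunits, Itgal gave -0.33 ± 0.0464 on its brightest probe (limma adjusted p = 0.00822) and 0.49 on another (limma adjusted p = 0.0381), so that its direction depended on the probe, and Itgam gave 0.10 (limma adjusted p = 0.559).

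Different probes of a gene did not always give the same direction. Among 11 tested members with several probes that each passed the detection flag on every array, the probes had the same sign in 7 and opposite signs in 4, namely Col14a1, Col18a1, Col6a5 and Itgal. Of the 5 called members, 4 were read by 1 probe only, and Col16a1 was the exception. The arrays lay on 1 slide, with the 3 controls and knockdown 1 in the first row and knockdown 2 and 3 in the second. Within the first row the changes were -0.84 for Col16a1, -0.83 for Col1a1, 0.82 for Col24a1, 0.71 for Itga8 and 1.08 for Itgb7. With the row as a block the limma adjusted p was 0.0253, 0.192, 0.0592, 0.0398 and 0.0280 for these genes in the same order, so that Col1a1 and Col24a1 were no longer called.

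The enzymes and helper proteins listed for collagen processing were lower wherever they passed the test. Of 30 tested genes of collagen processing and crosslinking (33 listed), 4 were called lower and none higher (5% and 3.91% of all genes tested). At adjusted p below 0.05, 10 were lower (33.3%, against 15.8% of all genes tested). No gene of this list was higher at that threshold (limma, against 15.7% of all genes tested). The median change was -0.15, against 0.0053 for all genes tested. P4ha1 and P4ha2 encode the catalytic subunits of prolyl 4-hydroxylase, which makes the hydroxyproline that holds the collagen helix together. P4ha1 gave -0.59, -0.86 and -0.72 in the controls and -1.74, -1.79 and -1.61 in the knockdown, a change of -0.99 ± 0.0902 (limma adjusted p = 0.00226). P4ha2 gave 5.43, 5.40 and 5.47 against 4.81, 4.73 and 4.89, a change of -0.62 ± 0.0571 (limma adjusted p = 0.00229), which was -0.58 without knockdown 2 and -0.55 under quantile normalisation, and not called in either. Both enzymes were lower on every knockdown array than on any control array. Fkbp14, a prolyl isomerase of the ER, fell by 0.91 on the log2 scale (SE 0.0514; limma adjusted p = 0.0007). Plod2, the lysyl hydroxylase that sets up stable crosslinks, fell by 0.66 (SE 0.117; limma adjusted p = 0.0161), and this call was lost with the slide row as a block and without control 1, control 3, knockdown 1 or knockdown 2.

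Several partners of these enzymes were lower by less than 1.5-fold. P4hb, the disulfide isomerase that is the beta subunit of prolyl 4-hydroxylase, gave -0.38, the prolyl 3-hydroxylase P3h1 -0.40, its partner Crtap -0.40 and the third protein of that complex, the cyclophilin Ppib, -0.27, all at limma adjusted p below 0.05. Sparc, a collagen-binding matricellular protein, gave -0.58, with values of -0.61 to -0.54 over the settings tried that lay on either side of the fold minimum, and the procollagen protease enhancer Pcolce -0.26. Serpinh1, the collagen chaperone of the ER, gave 0.52 (limma adjusted p = 0.065). Hsp90b1, a chaperone of the ER, fell by 1.52 on the log2 scale, and whether the shift of the collagen enzymes goes beyond that of other ER proteins was not tested.

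**Figure D4:**
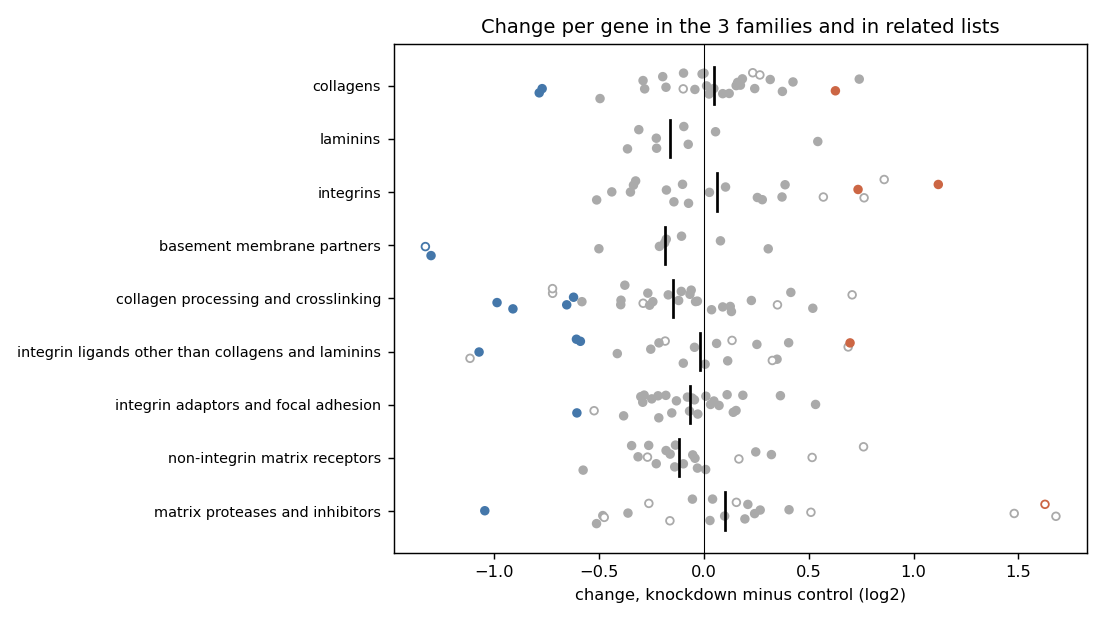
Change of each tested gene (knockdown minus control, log2, x axis) in the 3 families and in 6 lists of related genes, with the vertical bar at the median. Blue points were called lower, red points higher, and open points were not well above background on all 6 arrays. Called points of collagen processing all lie left of 0, between -0.99 and -0.62.

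Of the basement membrane partners, 9 of 15 were tested, 2 were called lower and none higher (5% and 3.91% of all genes tested), 33.3% were lower at adjusted p below 0.05 (15.8% of all genes tested), and the median change was -0.19. Smoc1, a calcium-binding glycoprotein of basement membranes, gave 0.09, 0.09 and 0.17 in the controls and -1.11, -1.25 and -1.20 in the knockdown, a change of -1.30 ± 0.0560 (limma adjusted p = 0.000415). For Papln, detected on all controls but in none of the knockdown samples, the fall was at least 2.10-fold (limma adjusted p = 0.00325; the control mean against, on each knockdown array, the higher of the lowest signal well above background and the gene's own signal). Under normexp its change was -0.24 and it was not called. Pxdn, the peroxidase that crosslinks collagen IV, gave -0.50 (limma adjusted p = 0.00822). The remaining tested genes of this list did not pass the test.

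Among the other integrin ligands, 20 of 28 were tested, with 3 called lower and 1 higher (5% and 3.91% of all genes tested) and a median of -0.020. At adjusted p below 0.05, 15% were lower and 15% higher, near the 15.8% and 15.7% of all genes tested. Fbln2, a fibulin, fell by 1.07 on the log2 scale (SE 0.0693), Edil3, an RGD protein, by 0.61 and Madcam1, the gut ligand of the Itga4 and Itgb7 dimer, by 0.59. Vcam1, a ligand of Itga4 dimers, rose by 0.70 (limma adjusted p = 0.00532), or 0.30 under normexp and 0.58 under quantile normalisation, and was not called in either, nor with the slide row as a block (limma adjusted p = 0.0546). Under normexp Edil3 gave -0.55 and Madcam1 -0.42, and neither was called. Madcam1 also lost its call when its probes were averaged, at -0.48, and without control 2 or knockdown 2, at -0.55 and -0.57. Of 27 tested adaptor and focal adhesion genes (31 listed) 1 was called lower, Lims1, at -0.61, and the median was -0.069. In that list 18.5% were lower and 3.7% higher at adjusted p below 0.05. Lims1 gave -0.54 without control 3, -0.56 under quantile normalisation and -0.52 under normexp, and was called in none of these. None of 20 tested non-integrin matrix receptors (21 listed) was called by limma, with 4 lower (20%, against 15.8% of all genes tested) and 1 higher (5%, against 15.7%) at adjusted p below 0.05 and a median of -0.12. The syndecan Sdc3 gave -0.58 (limma adjusted p = 0.00696), and was called at -0.60 under quantile normalisation, at -0.61 without control 3 and at -0.64 without knockdown 3. Of 21 tested matrix proteases and inhibitors (28 listed), 1 was called lower, the sheddase Adam10 at -1.05, and 1 higher, Mmp19, whose probe was detected nowhere and whose call was lost without control 1 or 2 or knockdown 1 or 3. At adjusted p below 0.05, 19% of that list were lower and 23.8% higher (15.8% and 15.7% of all genes tested), and its median was 0.098.

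Marker genes were read beside these values. Of 19 neuroblastoma, sympathetic and neuronal markers, all were well above background on all 6 arrays, and their summed linear signal was 559 to 570 times the 75th percentile in the controls and 544 to 562 in the knockdown. Of 14 fibroblast and mesenchymal markers 7 were detected on all arrays, while Fap, Lum, Pdgfrb, Prrx1, Tcf21 and Twist1 were not well above background on any. Their sum was 222 to 229 in the controls and 171 to 183 in the knockdown. Within this list S100a4 was called lower (-1.07) and Pdgfra higher (1.29), and Vim, which neural cells also express, gave -0.33. Of 9 Schwann cell and glial markers 4 were detected on all arrays, with sums of 25.4 to 27.2 in the controls and 20.4 to 21.8 in the knockdown. Epithelial markers summed to 0.375 to 0.411 in the controls and 0.446 to 0.472 in the knockdown, with Cdh1, Epcam and Krt18 detected on none. The mesenchymal sum was 97.7 to 98.4% Vim and the glial sum 96.8 to 97.6% Pmp22, so that these sums followed 1 gene each and show no shift of either class. Other markers of the classes pointed up, with values of 0.47 for Twist2 and 0.11 for Sox10 beside the call of Pdgfra. The part of these markers in the changes of the collagens was not tested.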

How the data were processed

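RNA of 3 control and 3 knockdown N2a samples was read on 1-colour Agilent arrays. The authors deposited scanner tables (Agilent Feature Extraction 10.10.1.1) with background-subtracted spot intensity and flags, and a table of log2 values scaled to the 75th percentile. The deposited log2 values differed from log2 intensity minus the 75th percentile by at most 0.00748 over 43557 probes with 1 spot. Each array was scaled that way here. Probes at or above the 20th percentile on all 3 arrays of at least 1 group were kept (42126), and the groups were compared with limma 3.58.1 (R 4.3.3; lmFit, eBayes, two-sided, Benjamini-Hochberg over these probes), 1 brightest probe per gene. The p-values printed as adjusted are from this fit.

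Accessions were named through the RefSeq table (GRCm38.p6), which matched 25869 of 26392 curated mRNA probes. Of the tested probes, 20548 stayed without a symbol. The array's own annotation uses an older build, so no probe coordinates are given. The number of arrays limits the precision.

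The members and lists were chosen with earlier results of these data known. Named members were the called ones and the 2 largest changes per subfamily among genes detected on all arrays. Up to 12 members at adjusted p below 0.05 with groups that do not overlap were also named, by size of change. The called ones were counted among these 12. From each list the called genes were named, up to 4. All other genes given with values, such as Col1a2, Col4a1, Col4a2, Col11a2, Itgb1, Itgb3, Itgbl1, Itga6, Itgav, Lamc1, Sparc and P4hb, were added after their values were seen. Genes withheld from the text, a member among them, are not reported here and are left out of the plots that name genes. The scripts were tested on simulated data. Alternatives were the background correction, the normalisation, the filter, probe averaging, the variance trend, the replicate and slide row blocks, no fold minimum and leaving out each array.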

Additional observations from a re-analysis of the deposited data

Results flagged for a closer look

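Col6a4, a collagen VI chain, was below the filter on dim probes and entered no comparison. Its signal was -8.35, -8.49 and -8.42 on the control arrays and -8.36, -2.35 and -8.09 on the knockdown arrays (log2, relative to the 75th percentile), and it was well above background only on knockdown 2. Lamb3, a laminin beta chain below the same filter, showed the same array apart from the others, with -8.28, -7.01 and -7.12 in the controls and -8.27, -2.37 and -7.98 in the knockdown. Both values come from a signal that no control array had, on 1 of 3 knockdown arrays. A second Col6a4 probe gave -7.40 on knockdown 2 and was well above background on no array.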

How the results depend on the processing

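The 2 members called lower became 1 with normexp, without the filter on dim probes, with the replicate block, with the slide row block and with the mean of a gene's probes, and Col1a1 was the member lost each time. Without the fold minimum 9 members were lower. The 3 members called higher became 0 with normexp (limma; 12 were higher at unadjusted p below 0.05 and 8 at adjusted p below 0.05) and 8 without the fold minimum. The 13 called genes of the 6 related lists became 8 with normexp and 39 without the fold minimum. Leaving out 1 array gave 1 to 3 members called lower, 2 to 4 called higher and 11 to 14 list genes called. The lower count was 1 without control 1, control 2, knockdown 1 or knockdown 2.

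The labels do not say whether same-numbered arrays belong together. The deviations of same-numbered arrays from their group means correlated at 0.0178, 0.0666 and 0.00246. Those of differently numbered arrays correlated at -0.0814 to 0.0627. With 3 arrays per group these values cannot decide whether the arrays were paired. With the replicate block 1 member was called lower, 2 higher and 13 list genes, and the calls of Col1a1 and Col24a1 were lost.

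Some members outside the calls changed sign. Under the slide row block Col22a1 gave 0.056, Itgam -0.073, Itgb1 0.0035, Lama3 0.011 and Lamc1 0.010. With the mean of a gene's probes Col18a1 gave 0.0057, Itgal 0.083 and Lama3 0.028. Leaving out 1 array gave -0.0012 to 0.42 for Col15a1 (lowest without knockdown 3), -0.23 to 0.0046 for Col1a2 (highest without control 1) and -0.13 to 0.0022 for Lamc1 (highest without knockdown 2). The cause was not tested. Of 65 genes tried, 56 kept their direction in every setting that gave a value (16 settings, but 15 for Mmp19, which the filter on detection removed). Normexp was run on the median spot signal and chosen after seeing the data, because the tables used here hold no mean signal. It adds an offset of 50 intensity units, of the same order as the signal of the Col1a1, Col24a1 and Itgb7 spots, and differences between dim spots shrink by construction.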
